A study of Mus musculus with 2 samples.

Results

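The coding part of the last exon runs from the last exon junction, or from the start codon where that lies in the last exon, to the stop codon. In the GLORI data, 13660 of the 219409 called sites were DRACH sites in this part of an mRNA. A site was taken when its 5-mer in the GRCm38 sequence matched DRACH and it was coding and in the last exon of the longest GENCODE M21 isoform covering it on the same strand. Isoforms had 2 or more exons, a complete coding sequence and both UTRs. Of these sites, 7036 were called in cerebellum, out of 79355 called sites, and 12742 in cerebrum, out of 188295. The 6118 sites called in both tissues are counted once in the total. They lay in 3617 genes, and 12583 of them, or 92.1%, were coding and in the last exon in every covering isoform.

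N6-methyladenosine is written on nascent mRNA by a complex whose catalytic subunit is Mettl3, at adenosines in the DRACH motif (D is A, G or T, R is A or G, and H is A, C or T, in the letters of the DNA). Exon junction complexes, which are deposited just upstream of each splice junction, are known to keep the methyltransferase away from nearby exonic sequence. The last exon carries no such complex at its downstream end, and it usually holds the stop codon and most of the 3′ UTR, the region best known for m6A. Its coding part lies between the last junction and the stop codon, so that the distance to either can be compared within 1 exon.

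GLORI deaminates unmethylated adenosines, which are then read as G, while a methylated adenosine is still read as A. The data consisted of 2 libraries of poly(A)+ RNA, 1 from the cerebellum and 1 from the cerebrum, both labelled female, P0 and F1r, the cross of a C57BL/6J mother with a PWK/PhJ father, and both given the GLORI treatment. The study's methods describe both as taken from 1 mouse. The names of both lists carry the same abbreviation beside the tissue, and the tissue was taken from the labels. The authors' lists hold sites whose methylation rate exceeded 0.1 and whose read count exceeded 8. They give positions without either value, so depth is unknown. A DRACH adenosine that is not in a list can be unmethylated, thinly covered or little expressed, and these cannot be told apart. Among 13 forebrain genes, 12 had a called site in cerebrum and 3 in cerebellum. Among 10 hindbrain genes, En1 and En2 had called sites in cerebellum alone, and Barhl1 had 12 in cerebellum and 1 in cerebrum. Gbx2 had 3 and 3, Barhl2 4 and 4 and Lhx9 15 and 18, and Atoh1, Pax2, Pax8 and Hoxa2 had none in either library. The forebrain genes thus separated the libraries, and the hindbrain genes did so only in part. Each tissue had 1 library, so values have no replicate check and the tissues were not tested against each other. Intervals are 95% and cover counting error over adenosines, which share their transcript's coverage.

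The positions in question are easiest to see in the sequences. The first 3, all called in both libraries, are among the members closest to the last exon junction, at 1 or 2 nt into the exon. The DRACH 5-mer is in capitals in a 21 nt window on the transcript strand, and the first 10 letters of Trp53bp1 and the first 9 of Commd3 and Csmd3 are intronic.
Trp53bp1, chr2:121198597-121198617, minus strand, 1 nt from the junction: ctttttacAGACAttgcttta
Commd3, chr2:18675858-18675878, plus strand, 2 nt from the junction: atcttttaGGACTtggtgggg
Csmd3, chr15:47582599-47582619, minus strand, 2 nt from the junction: ttctaacaGGACTgcacccaa
In these 3 windows the 5-mer reads across the splice acceptor, and the spliced mRNA holds the same 5-mer. Across all members, 0 lost DRACH when the spliced sequence replaced the genomic one.

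The next windows show, for genes with the most members, the member called in both libraries that is closest to the stop codon, with Armcx4 and Ahnak added as genes whose members called in both libraries lay farthest from the junction. All lie wholly in the last exon.
Slitrk5, chr14:111681789-111681809, plus strand, 18 nt upstream of the stop codon and 2862 nt from the junction: ggaaaaacAGACCacatttag
Rfx7, chr9:72619871-72619891, plus strand, 26 nt upstream and 3245 nt from the junction: gaaagcaaGGACCatcctact
Rlf, chr4:121146394-121146414, minus strand, 47 nt upstream and 4619 nt from the junction: ccaattttAGACTtgtttcca
Apc2, chr10:80315963-80315983, plus strand, 50 nt upstream and 4941 nt from the junction: atggccagTGACTccgcagtg
Zfp292, chr4:34805004-34805024, minus strand, 51 nt upstream and 7030 nt from the junction: tccagataGGACTgttttaaa
Zdbf2, chr1:63309063-63309083, plus strand, 870 nt upstream and 6434 nt from the junction: tctatcaaAGACTgttcttat
Armcx4, chrX:134696399-134696419, plus strand, 4 nt upstream and 7193 nt from the junction: taataaatAAACTctgattaa
Ahnak, chr19:9014857-9014877, plus strand, 3455 nt upstream and 13169 nt from the junction: cctgatatTGACTtaaacctg
The windows show that a member can lie deep inside a very long exon, and that its 5-mer can lie within a few nucleotides of the stop codon.

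Each member was set against the uncalled DRACH adenosines of the same exon parts, in transcripts with at least 1 called site of any motif in that library. In cerebellum, 12.3% of the 57161 DRACH adenosines in the coding part of last exons were called (12% to 12.6%), against 5.75% of all exonic DRACH adenosines of those transcripts. In cerebrum, 16.4% of 77547 were called (16.2% to 16.7%), against 7.54% of all. Called in either library were 17.2% of 79343, against 8.11% of all. Internal coding exons of 400 nt or less stood at 0.587% and 1.02%, internal coding exons over 400 nt at 15% and 20.3%, and the 3′ UTR part of last exons at 6.74% and 8.77%, for the cerebellum and the cerebrum. The members made up 41.2% of the coding DRACH calls in cerebellum and 42.2% in cerebrum. The coding part of last exons was thus called more often than short internal exons and the UTR as a whole, and less often than long internal exons.

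Members lay farther from the last junction than uncalled DRACH adenosines. In cerebellum, the median distance was 427 nt for members and 272 nt for uncalled adenosines, with quartiles of 170 and 1018 nt against 86 and 785 nt. In cerebrum, the medians were 416 and 251 nt. In the first 50 nt of the last exon, 3.10% of coding DRACH adenosines were called in cerebellum (2.75% to 3.50%) and 4.75% in cerebrum (4.38% to 5.16%). Ranges of distance or length given from here on start after their lower bound and end at their upper bound. The called share was 8.92% and 11.4% at 50 to 100 nt, 12.5% and 16.6% at 100 to 150 nt, and 15.1% and 19.4% at 150 to 200 nt. From 200 to 1000 nt it stood at 14.3% (13.8% to 14.7%) and 19.1% (18.6% to 19.5%). The steepest part of the profile was therefore within the first 150 nt, in both libraries.

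**Figure D1:**
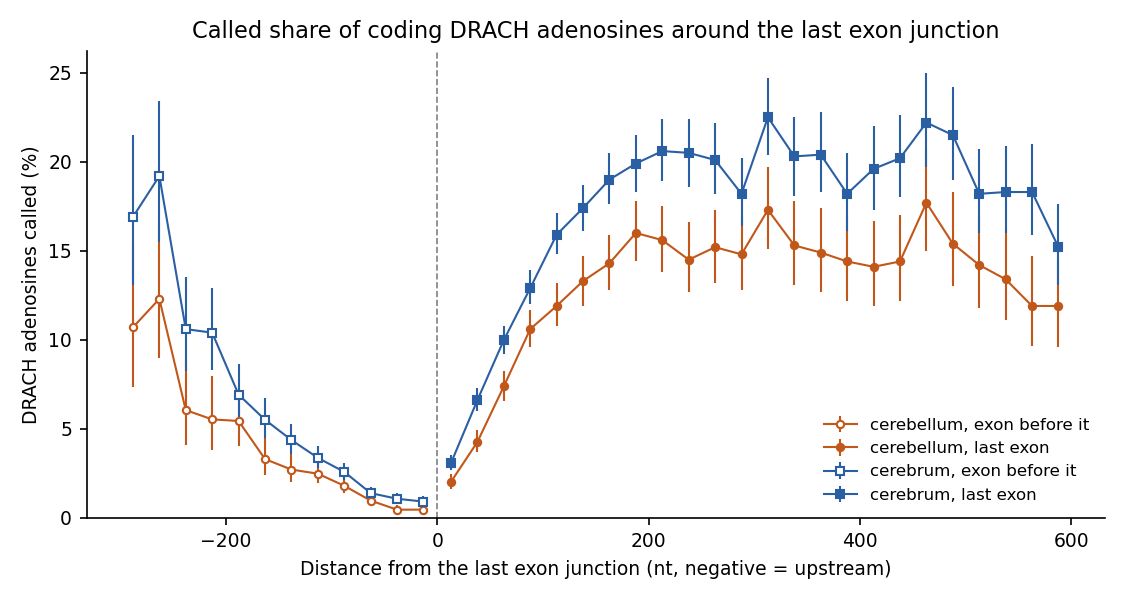
Percent of coding DRACH adenosines called (vertical axis) in bins of 25 nt by distance from the last exon junction (horizontal axis, in nt), for the last exon (filled) and the exon before it (open), with 95% Wilson intervals over adenosines. In both libraries the share is lowest on either side of the junction, and in the last exon it goes from 2.02% and 3.07% in the first 25 nt to 16.0% and 19.9% at 175 to 200 nt.

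The same held between adenosines of 1 transcript, which share expression and isoform. Over 200 nt against 1 to 100 nt from the junction, the odds ratio of being called, pooled over transcripts by the Mantel-Haenszel method, was 2.69 in cerebellum (2.36 to 3.06) and 3.04 in cerebrum (2.75 to 3.37). Against the first 50 nt alone it was 5.47 (4.35 to 6.89) and 5.88 (4.97 to 6.97). Comparing only adenosines with the same 5-mer in the same transcript, the odds ratio over 200 nt against 1 to 100 nt was 2.42 (1.94 to 3.02) and 3.59 (2.97 to 4.32). Of the 64 cerebellum transcripts with a member and 5 or more DRACH adenosines on each side, 51 had the higher called share over 200 nt from the junction, as did 70 of 82 in cerebrum. Of these 64 and 82 transcripts, 42 and 46 had no call within 100 nt, where as few as 5 adenosines could lie. With an empty near side, any call over 200 nt makes the far share the higher. These counts thus add little to the odds ratios. In the first 50 nt the share on each of the 19 autosomes was between 1.63% and 4.50% in cerebellum, and over 200 nt between 9.25% and 21.2%. In cerebrum these ranges were 1.99% to 7.42% and 14.6% to 30.7%. The ranges near and far from the junction did not overlap in either library.

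Beyond 200 nt, the called share changed little with distance. Over 1000 nt from the junction, 16.3% of DRACH adenosines were called in cerebellum (15.6% to 17%) and 22.7% in cerebrum (22.0% to 23.4%). Within transcripts, the odds ratio of over 1000 nt against 200 to 600 nt was 1.09 in cerebellum, with an interval from 0.980 to 1.22 that holds 1, and 1.10 in cerebrum (1.01 to 1.20). Within transcripts, DRACH adenosines over 1000 nt from the junction were thus called about as often as those at 200 to 600 nt. The lower range of 600 to 1000 nt did not enter that comparison.

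Upstream of the same junction, in the coding part of the exon before it, the share in the last 50 nt was 0.459% in cerebellum (0.332% to 0.635%) and 0.994% in cerebrum (0.824% to 1.20%). At 150 to 200 nt upstream it was 4.15% and 6.07%. Only long exons reach that far. At both distances the share was thus lower than in the last exon, which stood at 3.10% and 4.75% in its first 50 nt. At 150 to 200 nt the last exon stood at 15.1% and 19.4%. In a short exon, adenosines near the last junction also lie near the upstream junction, and these distances were not separated. Inside internal coding exons over 400 nt, the share in the 50 nt next to either junction was 3.55% and 5.14%, close to that in the last exon. At 150 to 200 nt from the nearest junction it was 16.3% and 21.4%. Matched on transcript and distance bin from the nearest junction, the odds ratio of the coding part of last exons against these long internal exons was 0.911 in cerebellum (0.829 to 1.00) and 0.973 in cerebrum (0.902 to 1.05). At matched distance within a transcript, a difference between the last exon and long internal exons was not detectable in cerebrum, and the interval in cerebellum ended at 1.00.

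At the other end, the stop codon, the pooled and the within-transcript comparisons went opposite ways. Within 100 nt upstream of the stop codon, the called share was lower than at over 200 nt upstream, with a ratio of 0.874 in cerebellum (0.830 to 0.921) and 0.868 in cerebrum (0.836 to 0.901). Within transcripts, adenosines near the stop codon were called more often, with an odds ratio of 1.55 (1.41 to 1.71) and 1.65 (1.53 to 1.78). Near the stop codon of a short coding part an adenosine is also near the junction, and 6287 DRACH adenosines in cerebellum and 8724 in cerebrum lay within 100 nt of both. With the junction distance bin as a further stratum, the odds ratio was 1.31 (1.10 to 1.56) and 1.43 (1.23 to 1.65). With the 5-mer added as well, the interval in cerebellum held 1 (1.18, 0.869 to 1.59). In 1 transcript, adenosines within 100 nt and over 200 nt upstream of the stop codon share a junction bin only beyond 400 nt from the junction. The adenosines within 100 nt of both ends thus did not enter the estimates with the junction bin, which cannot adjust for their position. Restricted to adenosines over 200 nt from the junction, the pooled ratio was 1.14 in cerebellum (1.07 to 1.22) and 1.11 in cerebrum (1.06 to 1.17). The pooled ratio also turned above 1 in coding parts of at least 500 nt, at 1.11 and 1.14. It did so without the 93 genes with 20 or more members as well, at 1.09 in cerebellum and at 1.03 in cerebrum, where the interval, 0.987 to 1.07, holds 1. Within transcripts and over 200 nt from the junction, the odds ratio was 1.14 (1.01 to 1.28) and 1.21 (1.10 to 1.33). The direction of the pooled ratio thus depended on which adenosines were kept, and that within transcripts did not in the alternatives tried.

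**Figure D2:**
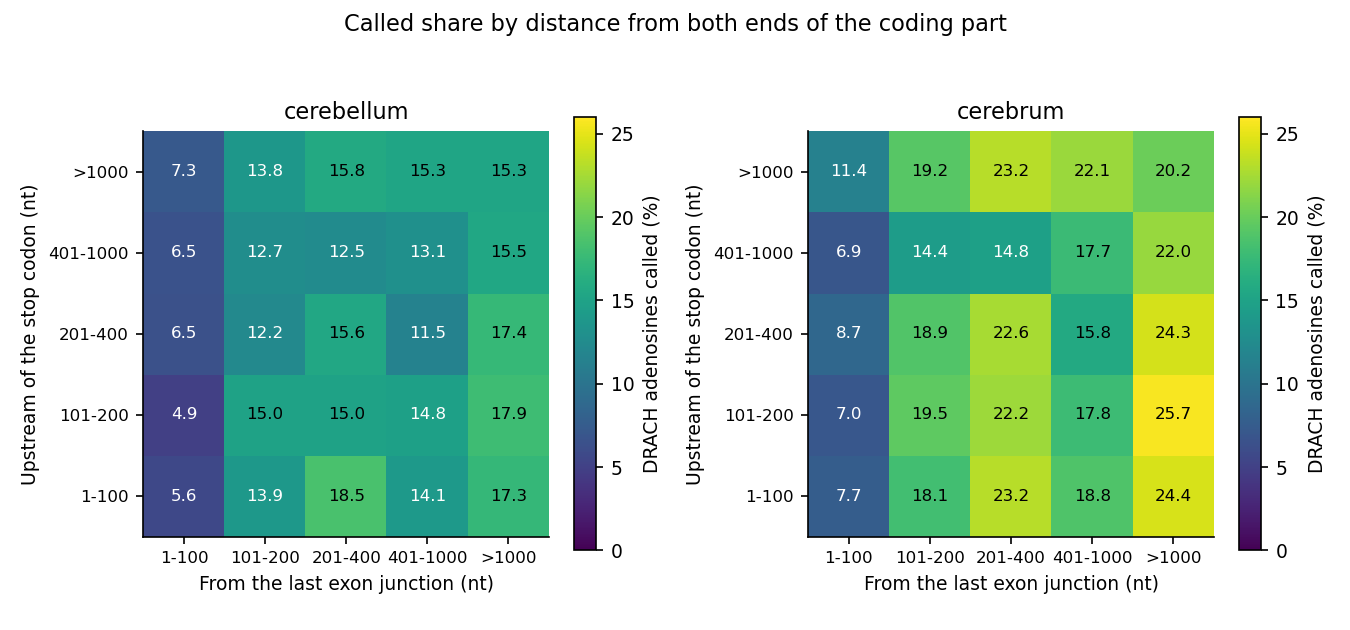
Percent of DRACH adenosines called (colour and number in each cell) by distance from the last exon junction (horizontal axis, nt) and upstream of the stop codon (vertical axis, nt), 1 panel per library. The column within 100 nt of the junction holds the lowest values of each row, 4.92% to 7.26% in cerebellum and 6.93% to 11.4% in cerebrum.

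Both distances together set the junction apart from the stop codon. At over 1000 nt from the junction, the share was 17.3% within 100 nt of the stop codon and 15.3% at over 1000 nt from it in cerebellum, and 24.4% and 20.2% in cerebrum. Within 100 nt of the junction, it was 5.61% within 100 nt of the stop codon and 7.26% at over 1000 nt from it in cerebellum, and 7.69% and 11.4% in cerebrum. At either distance from the stop codon, the share far from the junction was higher than the share near it.

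Across the stop codon the share was higher on the UTR side. Among adenosines over 150 nt from the junction, the odds ratio of the last 100 coding nt against the first 100 nt of the 3′ UTR of the same transcripts was 0.738 in cerebellum (0.665 to 0.819) and 0.792 in cerebrum (0.728 to 0.861). The 5-mers whose final T is the first letter of the stop codon were called at 21.7% of 396 in cerebellum and 26.6% of 568 in cerebrum. Other 5-mers ending in T within 3 to 50 nt upstream stood at 22.3% and 29.3%. Matched on 5-mer and junction bin, the odds ratio of the former to the latter was 0.845 (0.646 to 1.11) and 0.785 (0.636 to 0.968), so the difference was outside its counting error in cerebrum alone.

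Long coding parts allowed the reading frame and the UTR to be compared far from the stop codon. In transcripts with over 1000 coding nt in the last exon, the cerebellum share was 17.9% in the last 100 coding nt, 13.9% at 1000 to 2000 nt upstream of the stop codon and 15.4% beyond 2000 nt. In the 3′ UTR of the same transcripts it was 20.4% in the first 100 nt, 5.25% at 1000 to 2000 nt downstream and 3.90% beyond. In cerebrum the coding values were 26.6%, 20% and 20.8%, and the UTR values 28.6%, 7.86% and 5.41%. Within transcripts, coding adenosines over 1000 nt from the junction differed from the first 500 nt of the UTR by no more than counting error, with an odds ratio of 0.926 (0.836 to 1.02) and 1.01 (0.932 to 1.10). Against the UTR beyond 500 nt it was 3.78 (3.42 to 4.17) and 4.01 (3.71 to 4.34). The called share thus differed less along the coding side than along the UTR side.

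**Figure D3:**
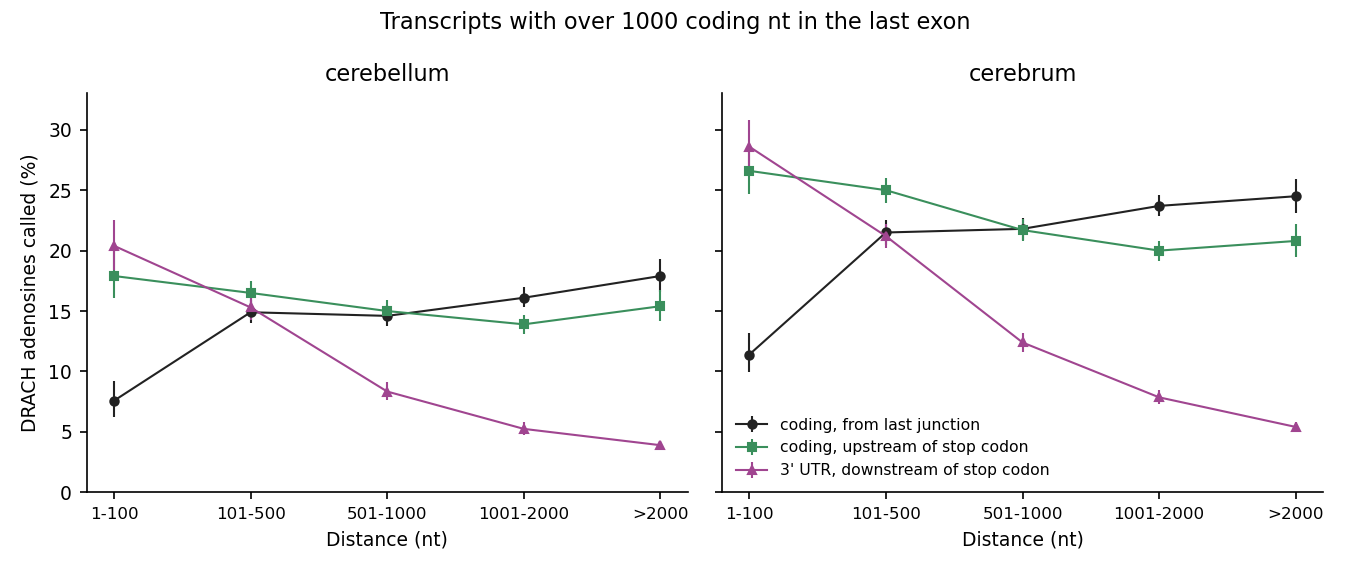
Percent of DRACH adenosines called (vertical axis) by distance class in nt (horizontal axis) in transcripts with over 1000 coding nt in the last exon, with 95% Wilson intervals over adenosines. The coding lines end at 15.4% to 17.9% in cerebellum and 20.8% to 24.5% in cerebrum beyond 2000 nt, while the UTR line ends at 3.90% and 5.41%.

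The length of the coding part went with whether a transcript held a member. Of transcripts with at most 50 coding nt in the last exon, 2.66% held a member in cerebellum (1.45% to 4.83%) and 5.79% in cerebrum (4.13% to 8.05%). With 100 to 200 nt, the most common class, 20.3% and 25.2% did. Beyond 2000 nt, 88.6% (82.5% to 92.8%) and 89.8% (84.3% to 93.5%) did. Transcripts with over 1000 coding nt were 9.33% of the cerebellum transcripts and held 51.9% of the members, and 8.19% and 50.1% in cerebrum. A longer coding part holds more DRACH adenosines, but the called share per adenosine also went from 1.84% and 4.41% in the shortest class to 16.6% and 23.0% in the longest. A coding part of at most 50 nt that starts at the junction lies wholly in the first 50 nt, where 3.10% and 4.75% were called. Length and distance from the junction were not separated here.

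The class of 400 to 1000 nt fell out of this order in both libraries, at 11.7% and 14% against 12.5% and 16.9% in the class of 200 to 400 nt. Olfactory, vomeronasal and trace amine receptor genes, whose coding sequence often sits in 1 exon, made up 413 of its 1624 genes, held 6609 of its DRACH adenosines and had 2 members. These are the cerebrum counts, and the genes were looked at after the values were seen. Without them the class stood at 20% (19.4% to 20.7%). In cerebellum, 162 of 1047 genes were such receptors, with 2584 DRACH adenosines and 0 members, and the class stood at 11.7% with them and 14.4% without. Apart from those 2 members, their called sites lay elsewhere in the transcript or outside DRACH.

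**Figure D4:**
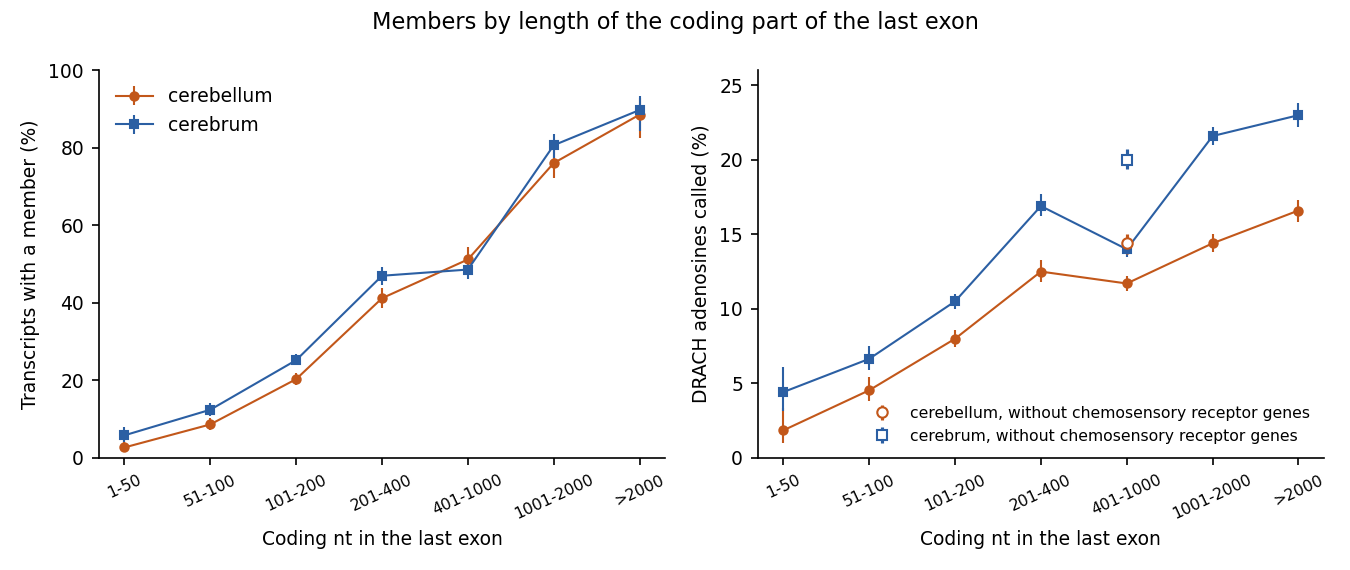
Percent of transcripts with a member (left) and percent of DRACH adenosines called (right) by coding nt in the last exon, for both libraries, with 95% Wilson intervals. The share of transcripts with a member goes from 2.66% and 5.79% to 88.6% and 89.8%, and the open points show the class of 400 to 1000 nt without chemosensory receptor genes, at 14.4% and 20%.

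Among the 18 DRACH 5-mers, the last base separated the members most. In the coding part, 5-mers ending in T were called at 22.7% in cerebellum and 29.2% in cerebrum, those ending in A at 9.84% and 13.7%, and those ending in C at 6.12% and 8.39%. GAACT was called most often, at 25.5% (23.9% to 27.1%) and 33.7% (32.2% to 35.1%), and TAACC least often, at 1.07% (0.614% to 1.86%) and 1.93% (1.35% to 2.74%). The order by last base held next to the junction. In the first 50 nt, 5-mers ending in T stood at 7.37% and 10.4%, those ending in A at 2.04% and 3.32%, and those ending in C at 0.600% and 1.42%. Near the junction the share was thus lower for each ending.

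TAACT differed between regions more than most 5-mers. In cerebellum it was called at 27.8% (24.9% to 31.0%) in the coding part over 100 nt from the junction and at 12.9% (11.9% to 14.0%) in the first 500 nt of the 3′ UTR. In cerebrum these shares were 29.5% and 13.7%. The other 5-mers starting with TA went the same way at lower shares. In cerebellum, TAACA stood at 4.80% coding and 1.87% UTR, and TAACC at 1.36% and 0.390%. In cerebrum, TAACA stood at 5.14% and 2.63%, and TAACC at 2.47% and 0.741%. GGACT went the other way, at 23.1% coding and 32.2% UTR in cerebellum, and 33.8% and 41.9% in cerebrum. In internal coding exons over 400 nt, at any distance from a junction, TAACT stood at 22.2% and 27.5%. The whole coding part of last exons, also at any distance, gave 23.3% and 24.2%. GGACT stood at 30.9% and 41.9% in these internal exons and at 21.6% and 30.8% in the whole coding part. In long internal exons GGACT was thus near its UTR shares, and its lower share did not hold for coding sequence in general. These 5-mers were picked out after their values were seen.

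Bases outside the 5-mer also separated called from uncalled adenosines. Over 100 nt from the junction, with T at the fourth base after the adenosine 20.3% were called in cerebellum, against 9.22% with G there. In cerebrum these shares were 25.8% and 13.7%. Within the same transcript and 5-mer, the odds ratio was 4.19 (3.39 to 5.18) and 4.43 (3.71 to 5.29). At the fourth base before the adenosine, A stood at 18.5% and G at 9.26% in cerebellum, with an odds ratio of 3.40 (2.86 to 4.03), and at 24.3% and 13.9% in cerebrum, with 3.16 (2.74 to 3.64). The first 500 nt of the 3′ UTR gave odds ratios of 3.97 and 3.71 after the adenosine and 3.43 and 3.64 before it, so both differences were found on either side of the stop codon. In the coding part, the fourth bases after and before had the widest gaps between bases. These were 12.2 and 9.98 percentage points in cerebellum and 13.3 and 11.4 in cerebrum. G was the lowest base at every position from 3 to 10 nt on either side, so a low share with G was not particular to the fourth bases.

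Base composition around the site went with the called share as well. With the 50 nt on either side below 40% GC, 17.1% of adenosines over 100 nt from the junction were called in cerebellum (16.1% to 18%), and from 60% GC upwards 9.35% (8.64% to 10.1%). The cerebrum values were 19.6% and 15.4%, with the highest share, 21.4%, at 40% to 45% GC. The position of the adenosine in its codon made little difference. The share was 11.5%, 12.5% and 12.8% at codon positions 1, 2 and 3 in cerebellum, and 14.9%, 16.9% and 17.4% in cerebrum. Matched on 5-mer, the odds ratio of position 3 against 1 was 1.05 (0.972 to 1.14) and 1.03 (0.971 to 1.10), so the pooled difference was not held between equal 5-mers. Position 2 against 1 gave 1.10 (1.04 to 1.18) and 1.12 (1.07 to 1.18). Matched on transcript as well as 5-mer, it gave 1.00 in cerebellum, with an interval from 0.885 to 1.13 that holds 1, and 1.15 in cerebrum (1.04 to 1.27).

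The 20 genes with the most members held 887 of them, or 6.49%, and each had a coding part of 1919 nt or more in the last exon. Zfp292, a zinc finger protein gene, held 82 members among 171 DRACH adenosines, with 55 in cerebellum and 79 in cerebrum. Apc, a negative regulator of Wnt signalling, held 63 and 73 of 165, and its relative Apc2 held 43 and 54 of 86. Zdbf2, an imprinted gene, held 48 and 51 of 183. Rlf, another zinc finger gene, held 32 and 49 of 125. These 5 genes had coding parts of 4665 nt (Rlf) to 7303 nt (Zdbf2).

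Several of the 20 genes encode leucine-rich repeat membrane proteins of neurons. Slitrk5 and Slitrk3, synaptic adhesion proteins, held 32 and 43 of 71 and 33 and 34 of 73 DRACH adenosines, cerebellum first. Lrrc4c, a ligand of netrin-G1, held 26 and 35 of 59. Flrt3, which binds latrophilins, held 15 and 32 of 59, and Lrrn3 held 29 in each library among 50. In Slitrk5, Slitrk3 and Lrrn3 the last exon was the second of 2.

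**Figure D5:**
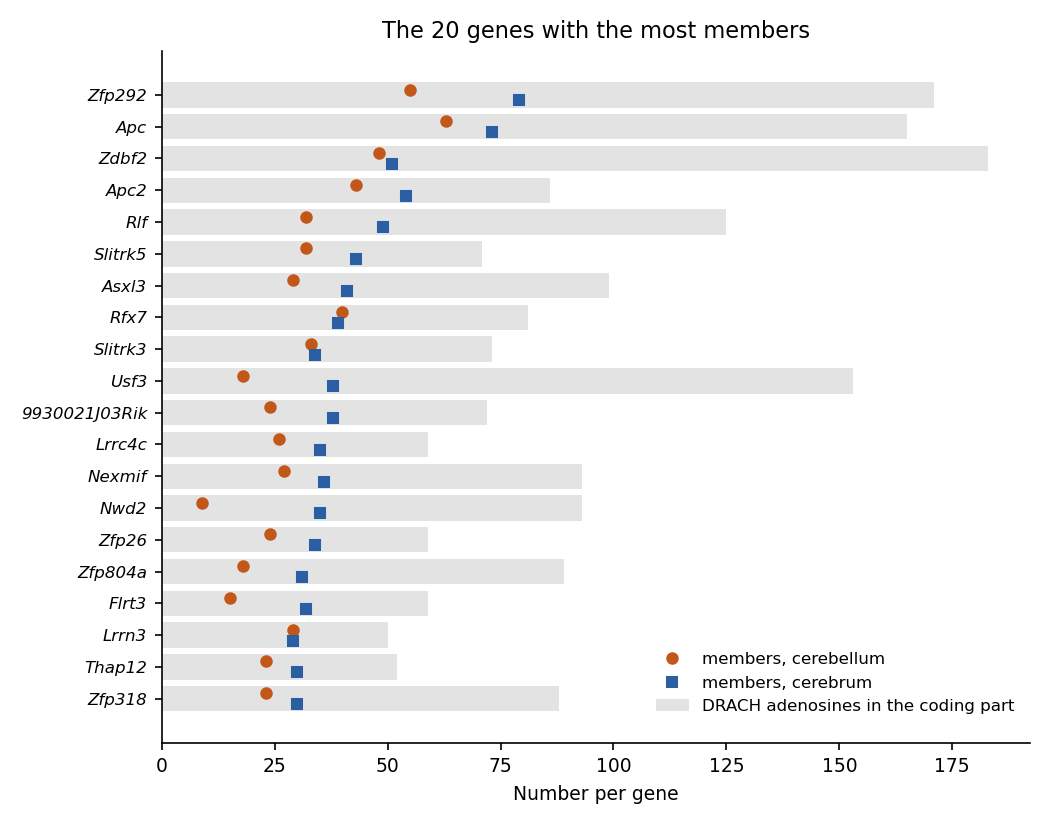
Number of members in cerebellum (circles) and cerebrum (squares) and number of DRACH adenosines in the coding part of the last exon (bars) for the 20 genes with the most members. The cerebrum count is the higher in 18 of the 20 genes, as it is over all genes (12742 against 7036). Nwd2 has the widest gap relative to its count, with 9 and 35.

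The other genes of the 20 were Asxl3, a chromatin regulator (29 members in cerebellum and 41 in cerebrum), Rfx7, a winged-helix transcription factor (40 and 39), Usf3 (18 and 38) and 9930021J03Rik (24 and 38). Nexmif, an X-linked gene, held 27 and 36, Nwd2 held 9 and 35, Zfp26 24 and 34, Zfp804a 18 and 31, Thap12 23 and 30 and Zfp318 23 and 30. The cerebrum held more members in 18 of the 20 genes and the cerebellum more in 1, Rfx7. Over all genes the cerebrum also held more, 12742 members against 7036, so the excess was not particular to these genes. Within 100 nt of the junction the 20 genes had 51 DRACH adenosines and 14 members, or 27.5%, against 46.2% of their 1921 DRACH adenosines in all. The genes were chosen for their many members, which raises the latter share. Of the 20 genes, 10 had no member within 100 nt. Among these, Zdbf2, Asxl3, Slitrk3 and Lrrn3 had no DRACH adenosine there either.

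By share rather than by number, the genes differed widely. Among the 1506 genes with 15 or more DRACH adenosines in the coding part, those with the highest shares had most of them called. Zbtb41 had 13 of 16 in each library, Fut9, a fucosyltransferase, 15 and 18 of 21, Arl4a, a small GTPase, 12 and 15 of 19, and Gpr85, an orphan receptor, 9 and 14 of 17. At the low end, 37 of the 582 such genes with 10 or more called sites elsewhere in the transcript had no member. Grin2a, an NMDA receptor subunit, had 0 of 58 with 10 called sites elsewhere, and Bmp2k, a kinase, 0 of 38 with 13. Gm4631 had 0 of 62, Zfp950 0 of 45 and 9930111J21Rik2 0 of 42. Ahnak, with the longest coding part named here, had 2 and 9 of 381 called.

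Gene lists differed in how many members they held and in how long their coding parts were. Over all 10073 genes in the background, 35.9% had a member, 17.2% of DRACH adenosines were called in either library, and the median coding part was 176 nt. Of 44 neural transcription factors, 32 had a member and 34.8% of their DRACH adenosines were called (31.1% to 38.7%), with 15.4% in cerebellum and 32.3% in cerebrum. Tshz3 held 5 members in cerebellum and 31 in cerebrum, Bcl11b 5 and 13, and Neurod1 0 and 13. Of 39 chromatin regulators, 24 had a member and 43.9% were called, among them Nsd1, a histone methyltransferase, with 18 and 25 and Arid1a, a SWI/SNF subunit, with 16 and 26. Both lists stood above all genes in the share called in either library.

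Of 37 genes listed as synaptic scaffold and active zone genes, 27 had a member and 43.2% of their DRACH adenosines were called. Slitrk4 held 15 and 26 members and Lrrtm4 17 and 18. Of the list's 259 members, 45 lay in Slitrk5, 40 in Slitrk3, 27 each in Slitrk2 and Slitrk4, 20 in Lrrtm2 and 19 in Lrrtm4. Slitrk and Lrrtm genes encode synaptic adhesion proteins, so the share is not that of scaffold and active zone genes alone. Of 28 microtubule and cytoskeleton genes, 19 had a member and 40.3% were called. Apc held 77 of the list's 192 members in either library and Apc2 55. They also held 165 and 86 of its 477 DRACH adenosines, so the share rests largely on them. Tubb3, the neuronal beta-tubulin, held 8 and 9 of 15. Of 40 axon guidance genes, 18 had a member, and Sema6d held 19 and 21 of 34. These lists stood above the 17.2% of all genes. Potassium channel genes were near it, with 33 of 55 genes and 19.2% (16.5% to 22.3%).

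Zinc finger protein genes held 2047 members in 271 of 356 genes. Their median coding part was 1312 nt, and 21.2% of their DRACH adenosines were called (20.4% to 22%). Over 200 nt from the junction they stood at 22.5%, against 21.1% for all genes. Cytosolic ribosomal protein genes were at the other end, with 4 of 36 genes holding 1 member each, in Rpl27, Rpl4, Rps12 and Rps6, and 4.49% of 89 DRACH adenosines called (1.76% to 11%). Their median coding part in the last exon was 106 nt. Of 12 immediate early genes, 7 had a member (58.3%, against 35.9% of all genes), and 26.1% of their DRACH adenosines were called (18.1% to 36.2%), against 17.2%. In cerebellum the share was 21.2% (10.7% to 37.8%), an interval that holds the 12.3% of all genes. Nr4a2, a nuclear receptor, held 5 and 6 of 12.

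Among 16 genes that write, read or erase m6A, 6 had a member (37.5%, against 35.9% of all genes), and 32 of their 98 DRACH adenosines were called (32.7%, 24.2% to 42.4%). In cerebellum 16.1% were called (10% to 24.9%), an interval that holds the 12.3% of all genes. Cbll1 and Wtap, both subunits of the methyltransferase complex, held 13 members each, with 10 and 5 in cerebellum and 13 each in cerebrum. Mettl16 and Zc3h13 held 2 members each, and the demethylase Alkbh5 and Rbm15 1 each, in cerebrum alone. Most of the list's members were thus in 2 subunits.

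The libraries shared most of the cerebellum members. Of these, 87.0% were also called in cerebrum (86.1% to 87.7%), while 48.0% of the cerebrum members were also called in cerebellum (47.1% to 48.9%). Among cerebrum members in transcripts with a called site in cerebellum, 51.5% were shared (50.6% to 52.4%). Over all exons of the isoforms used, 42715 DRACH sites were called in cerebellum, 73152 in cerebrum and 80142 in either. By these counts the overlap over all exonic DRACH sites was similar, so it was not particular to the members. The median gap between neighbouring members of 1 transcript was 68 nt in cerebellum and 60 nt in cerebrum, and 14.9% and 17.4% of members had another called site within 10 nt. A single member was the whole set in 1599 of the 3617 genes, and the 93 genes with 20 or more members held 19.5% of them.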

How the data were processed

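Poly(A)+ RNA of 1 cerebellum and 1 cerebrum was profiled by GLORI. The authors mapped reads to mm10 and to a PWK version of it, ran GLORI-tools on each, merged the calls per library and deposited position and strand of the sites whose methylation rate exceeded 0.1 and whose read count exceeded 8. The deposited unit is a genomic position, and no rate, count or depth is given. Positions were read in GRCm38, with GENCODE M21 gene models, which is not the release the study names. A site belonged to the longest complete protein-coding isoform covering it. All DRACH adenosines of isoforms with at least 1 called site were the background. Distance from the junction counts the first base of the last exon as 1. Called shares have Wilson intervals, ratios Katz intervals, and odds ratios are Mantel-Haenszel estimates with Robins-Breslow-Greenland intervals, with no p-value. Named genes were the 20 with the most members, the 5 with the highest and the 5 with the lowest called share, and up to 6 per gene list. A gene that this rule names is not reported here. Sequences were chosen by distance to the junction or stop codon. Members, lists and rules were chosen with earlier results of these data known. The alternatives were another background, isoform rule, 5-mer source or set of calls. The chemosensory and junction-distance restrictions were added after seeing the data. Steps were tested on simulated data with Python 3.11.15, numpy 2.4.6, pandas 2.3.3 and scipy 1.17.1, and figures drawn with matplotlib 3.10.9.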

Additional observations from a re-analysis of the deposited data

Results flagged for a closer look

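Called sites outside DRACH were also present in the coding part of last exons, a signal outside the comparisons above. They numbered 1715 of 8751 called sites there in cerebellum and 4353 of 17095 in cerebrum, and 1015 of them were called in both libraries. DRACH made up 80.4% of the called sites there in cerebellum (79.6% to 81.2%), 74.5% in cerebrum (73.9% to 75.2%) and 85.8% of the sites called in both (84.9% to 86.6%).

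On chromosome Y, 14 sites were called in cerebellum and 30 in cerebrum, 11 of them shared, although both samples are labelled female. None of the members lay on chromosome Y (0 of 13660). The sites are counted in the totals of called sites, and Y-linked transcripts with a called site are in the background.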

How the results depend on the processing

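Of 130 alternative values, 106 kept their direction with an interval that leaves out 1, or, for the called share of the whole coding part, stayed inside its reported interval. Some of the 106 could not change. Transcripts without a called site in the last exon add nothing to the odds ratios. Leaving these transcripts out returned 2.69, 1.55 and 1.31 in cerebellum, as before. Coding parts of at least 500 nt also returned 1.31 with the junction bin. The count thus overstates how much was tried. The odds ratio away from the junction ranged from 2.42 to 2.83 in cerebellum and from 2.82 to 3.59 in cerebrum, and that near the stop codon within transcripts from 1.22 to 1.57 and from 1.38 to 1.67. The called share moved with the background: to 20.3% and 24.3% (cerebellum, cerebrum) with 5 or more called sites per transcript, 12.9% and 17.2% with a called site in the last exon, 14% and 18.7% in coding parts of at least 500 nt, 10.7% and 7.89% with calls made in both libraries, 10.4% and 14.3% without genes of 20 or more members, 10.7% and 14% without calls within 10 nt of another call, and 12.9% and 18% without chemosensory receptor genes. The pooled ratio near against far from the stop codon turned to 1.11 and 1.14 in coding parts of at least 500 nt, to 1.09 and 1.03 without genes of 20 or more members and to 1.14 and 1.11 over 200 nt from the junction, and was 0.988 in cerebellum with 5 or more called sites. With the 5-mer as a stratum, the odds ratio near the stop codon by transcript and junction bin was 1.18 in cerebellum (0.869 to 1.59), and codon position 3 against 1 gave 1.05 and 1.03, all with intervals that hold 1. Standardising the whole coding part to its own 5-mers changes nothing by construction and was not run. No paired analysis was possible because each tissue has 1 library.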
